A study of Mus musculus with 12 samples.

Results

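The 10 genes described here belong to the Notch pathway and are the receptors Notch1, Notch2 and Notch3, the ligands and ligand-like proteins Dll1, Dll3, Jag1 and Dner, and the targets Hes1, Hes5 and Hey1. They were taken by gene name from 55401 genes listed in each of the deposited tables, and all 10 were found in both tables with a value in all 12 samples. The members were chosen by pathway role with the FPKM values of these 12 samples, NAD+ effects included, in view, so the p-values given below for its members describe the data and are not independent evidence. All samples were adult neural stem/progenitor cells (aNSPCs) grown in culture from the forebrain of C57BL/6 mice aged 8 to 10 weeks, in a medium with B27, EGF and FGF-2 before any differentiation. Bulk RNA-seq covered cells kept proliferating and cells set to differentiate, the latter with 1 µM retinoic acid and 5 µM forskolin, which raises cyclic AMP. Under each condition, cells were left without NAD+ (Ctrl) or were exposed to 1 mM NAD+ (nicotinamide adenine dinucleotide, a coenzyme of metabolism), and each of the 4 groups held 3 samples. A field of the labels lists every sample as untreated, and the groups follow the titles, which name NAD+. The study describes the 3 samples of a group as biological repeats, without saying whether they came from separate cultures or mice, and the p-values measure the spread between these samples. Values are FPKM (fragments per exon length and per mapped fragments of the sample), a scale set per length on which levels of different genes can be compared, and the files hold no read depth.

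Notch receptors are single-pass membrane proteins that are activated by ligands on the neighbouring cell. Binding of a ligand leads to cleavage of the receptor by an ADAM protease and then by gamma-secretase, and the freed intracellular domain enters the nucleus, joins the DNA-binding protein RBPJ and Mastermind-like coactivators, and turns on Hes and Hey genes. HES and HEY proteins are basic helix-loop-helix repressors that hold down genes of neuronal differentiation, and active Notch signalling is known for keeping neural stem cells undifferentiated and, at later stages, for favouring glial over neuronal fates. Dll1 and Jag1 are canonical ligands, Dll3 lacks the ability to activate receptors on neighbouring cells, and Dner is a Delta/Notch-like membrane protein with EGF repeats that has been described as a non-canonical ligand in neurons and glia.

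The promoters of the 3 genes whose level passed the test for NAD+ under differentiation conditions (Hes5, Notch3 and Dner, values below) are shown first, since RBPJ and the HES proteins act at such sequences. RefSeq promoters of GRCm38.p6, which hold 250 bases before and 50 after the start site, were matched by symbol for 8 of the 10 genes, and Hes1 and Hey1 had no entry. The bases before the start site follow, 5′ to 3′ on the strand of the gene, for Hes5 (chr4:154960673-154960922, plus strand), Notch3 (chr17:32166891-32167140, minus strand) and Dner (chr1:84696222-84696471, minus strand). Capitals mark the RBPJ core motif TGGGAA in Hes5 and the N-box CACNAG, a HES binding motif, in Notch3 and Dner, each searched on both strands, so that a match on the other strand reads as its reverse complement.
Hes5: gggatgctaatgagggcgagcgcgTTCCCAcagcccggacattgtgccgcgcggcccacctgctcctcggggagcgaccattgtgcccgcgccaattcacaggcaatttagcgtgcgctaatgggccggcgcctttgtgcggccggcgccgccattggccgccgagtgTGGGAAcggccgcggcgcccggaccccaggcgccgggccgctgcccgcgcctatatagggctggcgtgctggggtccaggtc
Notch3: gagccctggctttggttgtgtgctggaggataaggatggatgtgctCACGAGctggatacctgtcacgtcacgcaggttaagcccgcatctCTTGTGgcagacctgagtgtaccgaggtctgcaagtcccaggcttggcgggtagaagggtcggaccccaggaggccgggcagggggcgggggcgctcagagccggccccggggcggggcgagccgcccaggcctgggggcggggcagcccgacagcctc
Dner: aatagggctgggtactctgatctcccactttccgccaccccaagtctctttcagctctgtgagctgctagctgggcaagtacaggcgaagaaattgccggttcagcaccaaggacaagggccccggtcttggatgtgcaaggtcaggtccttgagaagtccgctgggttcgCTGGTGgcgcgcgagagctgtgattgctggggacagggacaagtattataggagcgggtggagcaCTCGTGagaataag
In Hes5, TGGGAA lay from 82 to 77 bases before the start site on the strand of the gene and from 226 to 221 bases before it on the other strand, and both matches were also matches of the longer form GTGGGAA, which contains the core. TGGGAA was in 25.6% of 32851 RefSeq promoters of this length and GTGGGAA in 6.38%. None of the other 7 genes with an entry held TGGGAA in this window. CACNAG, present in 42.5% of all promoters, was found 3 times in Notch1, 2 times each in Notch3 and Dner, and 1 time each in Notch2 and in 1 of the 2 entries of Dll1. The E-box CACGTG, present in 7.15% of all promoters, was found in 0 of the 8 genes. A match of letters does not show that a factor binds there.

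A proliferating Ctrl sample, replicate 1, stood apart from the rest. Its FPKM values summed to 363330, against 308828 to 314683 in the other 5 proliferating samples. In this sample the longest genes (at least 6518 exonic bases) lay -0.32 on the log2 scale (median) from the other Ctrl samples of the condition, and the shortest genes (up to 2272 bases) lay at 0.17. In the samples of the other groups the longest genes differed from the shortest by between -0.07 and 0.10 in such a comparison. In this sample they differed by -0.49. Proliferating Ctrl replicates 2 and 3 differed by 0.29 and 0.19, but the samples they were compared with include replicate 1. The exonic length of the 10 genes ran from 1363 bases for Hes5 to 14232 for Notch1, so values under proliferating conditions are also given without this sample where they turn on it. In every group 5 of 6 neural stem/progenitor markers had a mean FPKM of at least 1, and so had 6 of 6 astrocyte, 3 of 6 neuron and 3 or 4 of 5 oligodendrocyte lineage markers, while 0 of 6 markers each of microglia, endothelial and mural cells did. These counts do not single out 1 neural cell type.

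Under differentiation conditions, Notch3 and Hes5 fell and Dner rose with NAD+, and the other 7 genes did not pass the test (limma adjusted p under 0.05 over all 19611 tested genes). All 10 genes were above the minimum mean FPKM of 0.1 and were tested. The 3 of 10 that passed compare with 6.92% of all tested genes, 2.27% higher and 4.65% lower. The median log2 fold change of the 10 genes was -0.04, against -0.08 over all tested genes. The values of 5 of the 10 did not overlap between the groups, 2 with higher NAD+ values and 3 with lower ones, while 30.7% of all tested genes had no overlap, 9.68% and 21.1% in these directions. Of the 10, 5 had an unadjusted limma p-value under 0.05, as had 24.2% of all tested genes. No member reached the rule of the study for differentially expressed genes (DEGs, an unadjusted p-value under 0.05 and a more than 2-fold change), which 4.05% of tested genes met.

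Under proliferating conditions, 0 of the 10 genes passed the same test, where 27 of 18597 tested genes did (0.145%, with 0.0484% higher and 0.0968% lower), and 6 of the 10 had an unadjusted limma p-value under 0.05, as 15.4% of all tested genes had. The gene nearest to the threshold was Dner, with an adjusted p of 0.0514. The median log2 fold change of the 10 genes was -0.09, against 0.07 over all tested genes. The NAD+ and Ctrl values did not overlap for 6 genes, against 24.1% of all tested genes. Of the 6, Notch2 and Jag1 had higher NAD+ values (15.5% of all tested genes) and Notch3, Dll3, Dner and Hes5 lower ones (8.59% of all tested genes). No member met the DEG rule, which 3.01% of tested genes met.

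**Figure D1:**
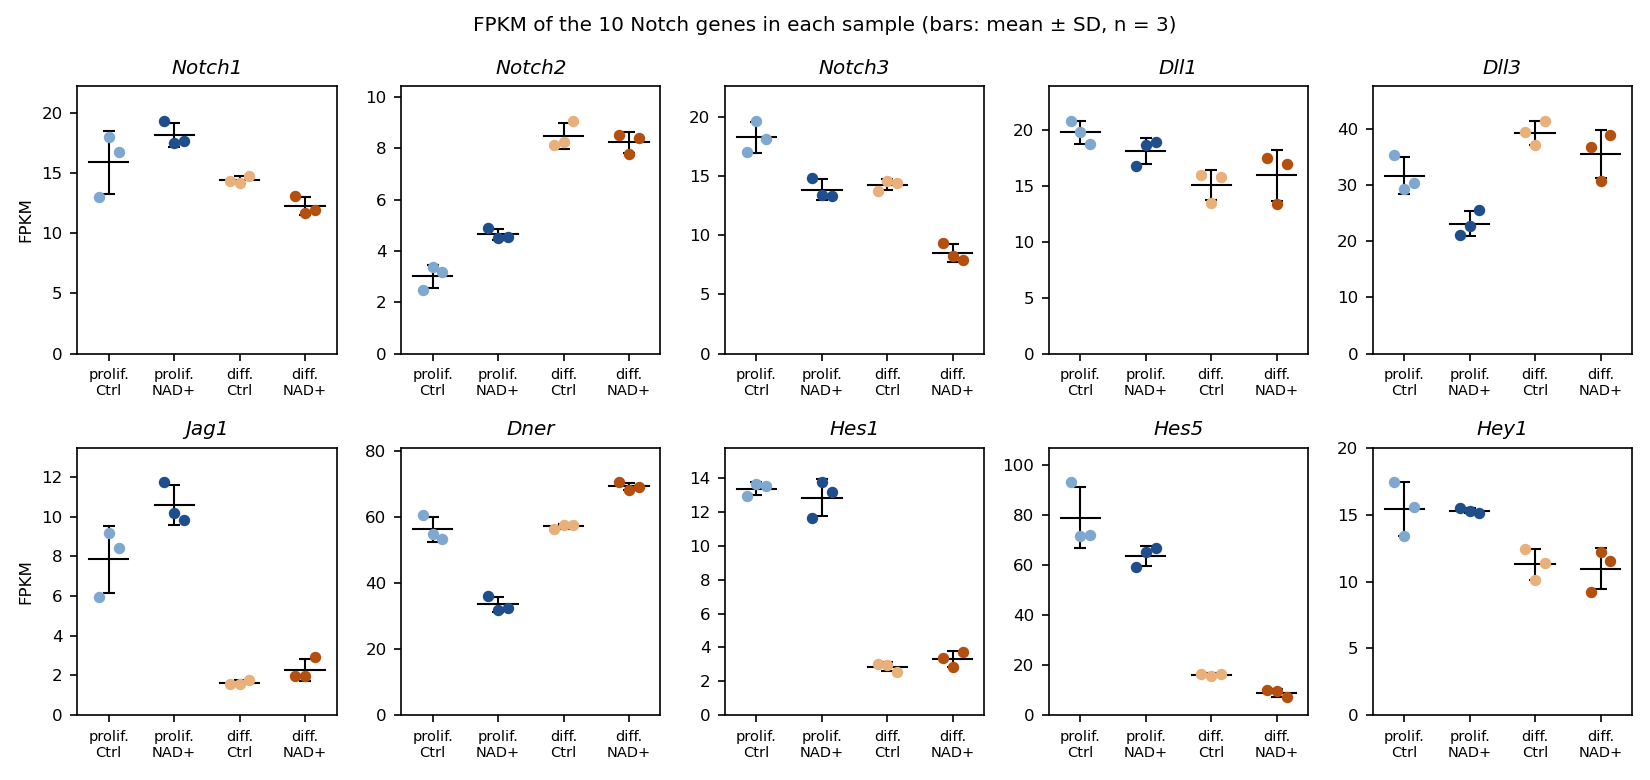
FPKM of each of the 10 genes in the 12 samples, with the groups on the x axis (proliferating or differentiation conditions, Ctrl or NAD+), a point for each sample and bars for the mean ± SD (n = 3). Hes5 in differentiation NAD+ samples lies at 7.02 to 9.83, under the 15.6 to 16.5 of the Ctrl samples, and Dner lies lower with NAD+ under proliferating conditions and higher under differentiation conditions.

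Notch3 (ENSMUSG00000038146, chromosome 17 from 32120820 to 32166852 of GRCm38, 33 merged exons) encodes a receptor that is found in adult neural stem cells and in mural cells of vessels. Its FPKM under differentiation conditions was 13.8, 14.6 and 14.4 in the Ctrl samples and 9.30, 8.27 and 7.90 in the NAD+ samples. All 3 NAD+ samples lay under all 3 Ctrl samples, and the mean fell from 14.3 ± 0.448 to 8.49 ± 0.726 (SD, n = 3), which is -0.74 on the log2 scale (SE 0.0757, limma adjusted p = 0.00665). Under proliferating conditions it was 17.03, 19.7 and 18.1 in Ctrl and 14.8, 13.4 and 13.3 with NAD+. These groups did not overlap either, with a log2 fold change of -0.40 (SE 0.0919, limma adjusted p = 0.141), and it was -0.45 without the sample that stood apart. The difference between the conditions was -0.35 and did not pass the test (limma adjusted p = 0.205). The gene shares 488 exonic bases with the antisense gene Gm17276, and strand was not stated to be used in counting, so their reads cannot be told apart there. The same limit holds for bases that other members share with other genes. These are 1482 in Notch1 (with 2 genes), 867 in Dll1, 541 in Notch2 and 77 in Dner, beside those of Hes5 given below. The 6 mural cell markers summed to 1.26 to 1.56 FPKM in differentiation Ctrl and to 1.85 to 2.25 with NAD+, where 1 of 4 tested markers (Kcnj8) passed upwards and Myh11, at a mean of 0.15 in Ctrl and 0.0733 with NAD+, did not pass. Under proliferating conditions they summed to 1.24 to 1.30 in Ctrl and to 0.86 to 0.91 with NAD+, and 0 of 3 passed in limma. Their part in the Notch3 values was not tested.

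Notch1 (ENSMUSG00000026923, chromosome 2 from 26457903 to 26516663, 40 merged exons), the receptor best known from embryonic and adult neural stem cells, was at 14.4, 14.2 and 14.8 FPKM in differentiation Ctrl and at 13.1, 11.7 and 11.9 with NAD+. The groups did not overlap, but the log2 fold change of -0.24 did not pass (SE 0.0629, limma adjusted p = 0.0779). Under proliferating conditions the values were 12.97, 18.0 and 16.7 in Ctrl and 19.3, 17.5 and 17.7 with NAD+, with overlap. The lowest of these Ctrl values belongs to the sample in which long genes were low, and the log2 fold change of 0.20 was 0.07 without it.

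Notch2 (ENSMUSG00000027878, chromosome 3 from 98013527 to 98150361, 34 merged exons), a receptor known from quiescent neural stem cells, had the lowest mean of the 3 receptors in all 4 groups, though it overlapped Notch3 in differentiation NAD+ samples. Under proliferating conditions its FPKM was 2.49, 3.36 and 3.17 in Ctrl and 4.90, 4.50 and 4.55 with NAD+. All NAD+ samples lay above all Ctrl samples, with a log2 fold change of 0.62 (SE 0.142, limma adjusted p = 0.138) that was 0.50 without the sample that stood apart. Under differentiation conditions the Ctrl samples were at 8.12, 8.25 and 9.07 and the NAD+ samples at 8.52, 7.76 and 8.42, which overlap (log2 fold change -0.04). The difference between the conditions was -0.66 (SE 0.155) and did not pass the test (limma adjusted p = 0.0911).

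The balance of the receptors differed between the groups, which the ratio of 2 genes in the same sample shows with no scaling between samples. These ratios were chosen after the values were seen and were not tested. The ratio of Notch2 to Notch3 was 0.146, 0.171 and 0.175 in proliferating Ctrl and 0.330, 0.337 and 0.342 with NAD+. Under differentiation conditions it was 0.590, 0.565 and 0.629 in Ctrl and 0.916, 0.938 and 1.07 with NAD+. The NAD+ samples lay above the Ctrl samples of the same condition throughout, and all differentiation samples lay above all proliferating ones. The ratio of Notch1 to Notch3 was 0.762 to 0.923 in proliferating Ctrl and 1.30 to 1.33 with NAD+, and 0.970 to 1.04 against 1.41 to 1.504 under differentiation conditions, so that Notch1 exceeded Notch3 in all 6 NAD+ samples. The lowest proliferating Ctrl ratios, 0.146 and 0.762, are those of the sample in which long genes were low. A ratio within a sample does not remove a bias by length, and exonic length differed (14232 bases for Notch1, 10782 for Notch2 and 8089 for Notch3).

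**Figure D2:**
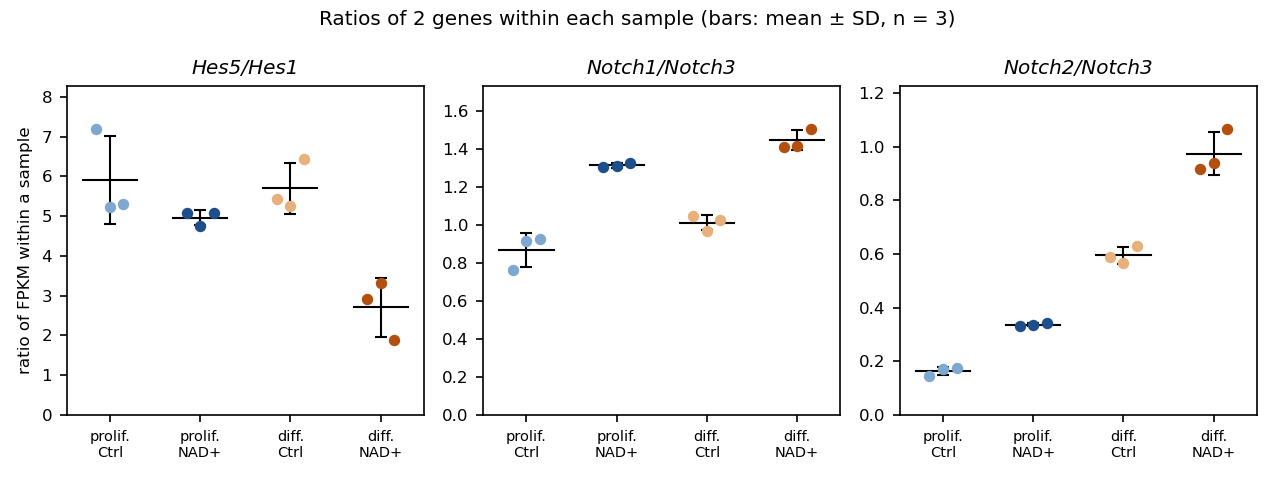
Ratio of the FPKM of 2 genes within each sample (y axis) by group (x axis), with a point for each sample and bars for the mean ± SD (n = 3). Notch1/Notch3 and Notch2/Notch3 lie higher with NAD+ under both conditions, and Hes5/Hes1 lies at 1.88 to 3.33 in differentiation NAD+ samples against 5.25 to 6.44 in Ctrl. Under proliferating conditions Hes5/Hes1 lies at 4.74 to 5.08 with NAD+ against 5.24 to 7.19 in Ctrl.

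Of the ligands, Dner (ENSMUSG00000036766, chromosome 1 from 84369839 to 84696221, 15 merged exons) had NAD+ values on opposite sides of Ctrl under the 2 conditions. Under proliferating conditions its FPKM was 60.7, 55.0 and 53.3 in Ctrl and 36.2, 32.0 and 32.6 with NAD+. Under differentiation conditions it was 56.4, 57.5 and 57.8 in Ctrl and 70.6, 68.4 and 69.3 with NAD+. All NAD+ samples were lower in the former and all were higher in the latter, and the Ctrl samples of the conditions overlapped. The log2 fold change under proliferating conditions was -0.74 (SE 0.0883, limma adjusted p = 0.0514), and -0.69 with an adjusted p of 0.0554 without the sample that stood apart. Other ways of fitting all samples gave Dner an adjusted p between 0.000523 and 0.137 here, on both sides of the threshold. The mean rose from 57.2 ± 0.726 to 69.4 ± 1.09 under differentiation conditions (SD, n = 3), or by 0.28 on the log2 scale (SE 0.0397, limma adjusted p = 0.0147). The rise of Dner did not pass when any 1 of the 3 Ctrl samples was left out (limma adjusted p from 0.0567 to 0.0684). The difference between the effects was 1.02 on the log2 scale (SE 0.0934, limma adjusted p = 0.00244), and Dner was the 1 member of 10 to pass this test, which 0.467% of 19498 tested genes passed, 0.221% with the more positive effect under differentiation conditions and 0.246% with the more negative one. Of the other genes of the list, 4 had an unadjusted p-value under 0.05 (Notch1, Notch2, Notch3 and Hes5), where 15.5% of tested genes had one.

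Dll3 (ENSMUSG00000003436, chromosome 7 from 28293553 to 28302238, 7 merged exons) was at 35.3, 29.3 and 30.4 FPKM in proliferating Ctrl and at 21.1, 22.7 and 25.5 with NAD+. The groups did not overlap, with a log2 fold change of -0.45 (SE 0.110, limma adjusted p = 0.155). The highest Ctrl value is that of the sample that stood apart, and the log2 fold change was -0.37 without it. Under differentiation conditions the values of 39.3, 37.1 and 41.4 in Ctrl and 36.8, 30.7 and 38.9 with NAD+ overlapped. Dll1 (ENSMUSG00000014773, chromosome 17 from 15367354 to 15376872, 12 merged exons), the ligand that activates receptors on neighbouring cells and was the more abundant canonical one here, overlapped between Ctrl and NAD+ under both conditions. It ranged from 16.9 to 20.9 FPKM in the 6 proliferating samples and from 13.4 to 17.5 in the 6 differentiation samples, with log2 fold changes of -0.13 and 0.07.

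Jag1 (ENSMUSG00000027276, chromosome 2 from 137081456 to 137116644, 25 merged exons), the other canonical ligand, had higher values with NAD+ under both conditions, and neither difference passed. Its FPKM was 5.94, 9.18 and 8.41 in proliferating Ctrl and 11.7, 10.2 and 9.81 with NAD+ (log2 fold change 0.44, SE 0.175, limma adjusted p = 0.298). The lowest Ctrl value is again that of the sample that stood apart, and the log2 fold change was 0.26 without it. Under differentiation conditions it was 1.58, 1.55 and 1.77 in Ctrl and 1.96, 1.95 and 2.92 with NAD+ (log2 fold change 0.43, SE 0.177, limma adjusted p = 0.201). The groups did not overlap in either case, and 1 NAD+ sample under differentiation conditions lay well above the other two.

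Of the targets, Hes5 (ENSMUSG00000048001, chromosome 4 from 154960923 to 154962371, 2 merged exons), whose promoter held the RBPJ core above, fell with NAD+ under differentiation conditions. Its FPKM was 16.4, 15.6 and 16.5 in Ctrl and 9.83, 9.41 and 7.02 with NAD+. All NAD+ samples were lower than all Ctrl samples, and the mean fell from 16.2 ± 0.471 to 8.75 ± 1.52 (SD, n = 3), with a log2 fold change of -0.89 (SE 0.129, limma adjusted p = 0.0150). It did not pass when any 1 of the 3 Ctrl samples was left out (limma adjusted p of Hes5 from 0.0544 to 0.0652). Under proliferating conditions it was 93.0, 71.5 and 72.0 in Ctrl and 59.2, 65.2 and 66.8 with NAD+, without overlap (log2 fold change -0.30, SE 0.122, limma adjusted p = 0.317). The highest value is that of the sample in which short genes were high, and the log2 fold change was -0.17 without it. A difference of the effect between the conditions did not pass the test (difference -0.60, limma adjusted p = 0.182). Of its 1363 exonic bases, 433 are shared with Gm20421 on the other strand, so reads from that stretch cannot be assigned.

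Hes1 (ENSMUSG00000022528, chromosome 16 from 30064384 to 30067796, 7 merged exons), which is regulated by Notch and also by other pathways, overlapped between NAD+ and Ctrl under both conditions. It was at 12.9, 13.6 and 13.6 FPKM in proliferating Ctrl and at 11.7, 13.8 and 13.2 with NAD+. Under differentiation conditions it was at 3.03, 2.98 and 2.56 in Ctrl and at 3.36, 2.83 and 3.73 with NAD+ (log2 fold change 0.20, SE 0.130, limma adjusted p = 0.409). The ratio of Hes5 to Hes1 within a sample was 5.42, 5.25 and 6.44 in differentiation Ctrl and 2.93, 3.33 and 1.88 with NAD+, and was lower in all 3 NAD+ samples. Under proliferating conditions it was 7.19, 5.24 and 5.31 in Ctrl and 5.08, 4.74 and 5.07 with NAD+, also without overlap. The highest of these Ctrl ratios is that of the sample that stood apart. Hey1 (ENSMUSG00000040289, chromosome 3 from 8663359 to 8667256, 3 merged exons), a related repressor, ranged from 13.4 to 17.5 FPKM in the proliferating samples and from 9.22 to 12.4 in the differentiation samples. Its Ctrl and NAD+ values overlapped, with log2 fold changes of -0.01 and -0.05.

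**Figure D3:**
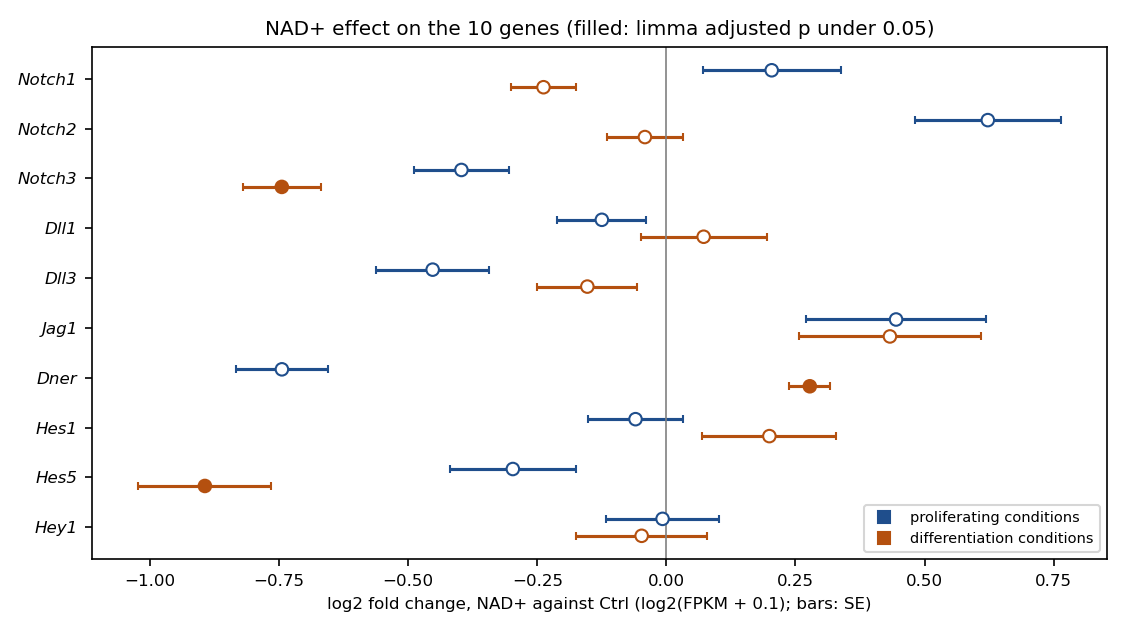
Log2 fold change of NAD+ against Ctrl (x axis, on log2(FPKM + 0.1), bars for SE) for the 10 genes (y axis) under proliferating and differentiation conditions, with filled points for genes that passed the test. Filled points are Notch3 (-0.74), Dner (0.28) and Hes5 (-0.89) under differentiation conditions, and the bars of Dner lie on opposite sides of 0.

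With 3 samples against 3, the exact two-sided permutation test of a single gene cannot go below p = 0.10, and every comparison above without overlap gave this value. In bulk RNA, fewer cells that express a gene and less RNA per cell cannot be told apart. Some markers of cell types also differed between Ctrl and NAD+ under differentiation conditions. The summed FPKM of 6 astrocyte markers was 1149 to 1260 in Ctrl and 1646 to 1671 with NAD+, where 3 markers passed upwards (among them Gfap, log2 fold change 0.72) and 1 downwards (Aldh1l1, -0.61). Gfap differed most in FPKM (mean 595.2 in Ctrl and 976.9 with NAD+). Of the markers that did not pass, Aqp4 was lower (34.76 and 27.84) and S100b higher (94.81 and 107.2), both without overlap. The summed FPKM of 5 oligodendrocyte lineage markers was 24.8 to 30.1 in Ctrl and 19.3 to 24.5 with NAD+. Each of these markers overlapped when taken singly, and 0 of 4 tested markers passed in limma. Neuron markers summed to 29.9 to 35.3 in Ctrl and 30.6 to 31.0 with NAD+, and 0 of 6 passed in limma. Neural stem/progenitor markers summed to 712 to 800.2 in Ctrl and 720 to 799.9 with NAD+, where Vim passed upwards (0.75) and Pax6 downwards (-0.39). Ependymal markers, with Tmem212 at 0 in both groups, summed to 25.5 to 31.8 and cycling markers to 20.6 to 23.7 over the 6 samples. Under proliferating conditions neural stem/progenitor markers summed to 2474 to 2723 in Ctrl and to 1492 to 1995 with NAD+, beside the lower Dner, Dll3, Notch3 and Hes5 values, and 0 of 6 passed. The lower sum was that of Fabp7 (mean 2107 in Ctrl and 1317 with NAD+), as the other 5 summed to 442.6 to 538.9 in Ctrl and 461.5 to 508.5 with NAD+. Oligodendrocyte lineage markers summed to 19.9 to 20.2 in proliferating Ctrl and to 12.7 to 16.3 with NAD+, with Pdgfra and Cspg4 lower without overlap, and 0 of 4 passed. The part of these marker differences in the Notch gene values was not tested.

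Hes5, Hes1 and Jag1 had much lower levels under differentiation than under proliferating conditions, both with and without NAD+. The conditions come from separate tables, and a common scaling is not stated, so these levels are described without a test. In Ctrl, mean FPKM was 4.87 times lower for Hes5, 4.80 times lower for Jag1 and 4.68 times lower for Hes1 under differentiation conditions. With NAD+ the ratios were 7.28, 4.64 and 3.89. Notch2 was the gene with the largest opposite difference in Ctrl, 2.82 times higher in differentiation Ctrl and 1.77 times higher with NAD+. Dner was 1.02 times its proliferating level in Ctrl, with overlap, and 2.07 times with NAD+, without overlap.

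In all, 6 of the 10 genes were lower in every differentiation Ctrl sample than in every proliferating Ctrl sample (Notch3, Dll1, Jag1, Hes1, Hes5 and Hey1) and 2 were higher (Notch2 and Dll3), where 33.9% and 27.9% of all tested genes were (61.7% without overlap in all). With NAD+, 6 were lower (Notch1, Notch3, Jag1, Hes1, Hes5 and Hey1) and 3 higher (Notch2, Dll3 and Dner), where 41.7% and 24.6% were (66.3% in all). After quantile normalization of the 12 samples, 3 genes remained lower in Ctrl (Jag1, Hes1 and Hes5), and Dner joined Notch2 and Dll3 as higher, while Notch3, Dll1 and Hey1 overlapped. With NAD+ it left 4 lower (Notch3, Jag1, Hes1 and Hes5) and 3 higher, while Notch1, Dll1 and Hey1 overlapped. The shares of all genes above are for values without this normalization. They were not computed after it, so the counts after it have no background to be set against. Cycling markers summed to 202 to 282 FPKM in the proliferating samples and to 20.6 to 23.7 in the differentiation samples, and astrocyte markers to 468 to 597 and 1149 to 1671. Most of the cycling sum in the differentiation samples was Pcna (mean 18.08 in Ctrl and 20.11 with NAD+). In Ctrl, Pcna had a mean of 95.46 under proliferating conditions. Mki67 (33.15 and 0.5867) and Top2a (39.76 and 0.8933) differed by more between the conditions in Ctrl. In Ctrl, the astrocyte marker that differed most was Gfap (mean 19.05 under proliferating and 595.2 under differentiation conditions). Mean Aqp4, Slc1a2 and Slc1a3 were also higher, while S100b was lower (163.5 and 94.81) and Aldh1l1 about level (92.31 and 93.53). Neural stem/progenitor markers summed to 2474 to 2723 in proliferating Ctrl and to 712 to 800.2 in differentiation Ctrl. With NAD+ they summed to 1492 to 1995 and 720 to 799.9. In Ctrl, means were lower under differentiation conditions for Fabp7 (2107 and 449.3), Nes (68.78 and 9.92), Sox2 (224.8 and 146.9) and Vim (186.9 and 144.2). Pax6 was about level (3.02 and 3.197) and Prom1 higher (0.22 and 0.76). The part of the cycling, astrocyte and neural stem/progenitor markers in these level differences was not tested.

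**Figure D4:**
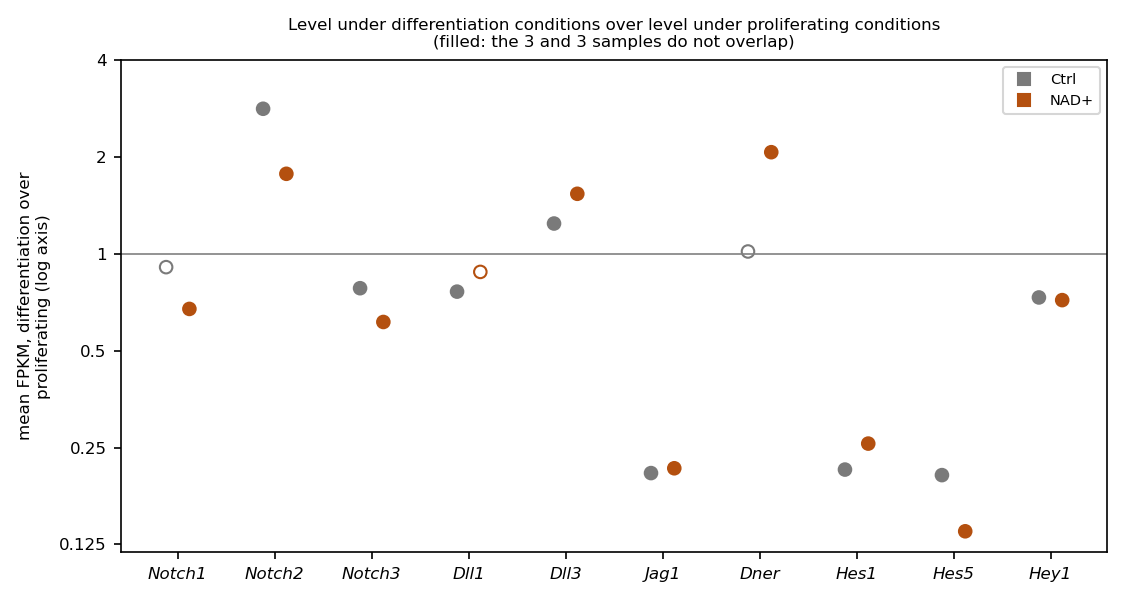
Mean FPKM under differentiation conditions divided by that under proliferating conditions (y axis, log scale) for the 10 genes (x axis), in Ctrl and with NAD+, with filled points where the 3 and 3 samples do not overlap. Jag1, Hes1 and Hes5 lie at 0.137 to 0.257, Notch2 lies highest in Ctrl at 2.82, and Dner lies at 1.02 in Ctrl and 2.07 with NAD+.

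The order of the levels also differed between the groups. In proliferating Ctrl, Hes5 (mean FPKM 78.9) stood above Dner (56.3), Dll3 (31.7) and Dll1 (19.8), each without overlap to the next. Dll1, Notch3, Notch1, Hey1 and Hes1 followed from 19.8 to 13.4 with overlap between neighbours, and Jag1 (7.84) and Notch2 (3.01) stood apart at the low end. With NAD+ the first 3 places were the same (63.7, 33.6 and 23.1), Notch1 came above Notch3 (18.2 against 13.8), and the neighbours Dll1 and Notch1, Notch3 and Hes1, and Hes1 and Jag1 overlapped. In differentiation Ctrl, Dner (57.2) and Dll3 (39.3) came first, and Hes5 (16.2), Dll1 (15.1), Notch1 (14.4) and Notch3 (14.3) followed with overlap between neighbours, above Hey1 (11.3), Notch2 (8.48), Hes1 (2.86) and Jag1 (1.63). With NAD+, Dner (69.4), Dll3 (35.5) and Dll1 (16.0) stood apart, Notch1, Hey1, Hes5, Notch3 and Notch2 formed a run from 12.2 to 8.23 with overlap between neighbours, and Hes1 (3.31) and Jag1 (2.28) came last and overlapped.

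The likeness of 2 patterns was measured as the root mean square difference of log2(FPKM + 0.1) over the 12 samples, each gene centred on its own mean, among 11648 genes whose mean FPKM was 1 or more in both tables. Among the 10 genes, Dll1 and Hey1 were closest (0.211), followed by Dll3 and Dner (0.222), and Notch2 and Hes5 were farthest apart (1.92). The 3 genes nearest to Dner, the ligand with the highest mean over the 12 samples, were Lhfpl3 (0.140), Plpp4 (0.150) and Rorb (0.166). For Notch1, the receptor with the highest mean over the 12 samples, they were Stxbp4 (0.0595), Bhlhb9 (0.0759) and Trappc8 (0.0771). For Hes5, the target with the highest mean over the 12 samples, they were Selenoh (0.223), Eno1b (0.245) and Cacng8 (0.248). Group means ran from 12.2 to 18.2 FPKM for Notch1 and from 2.68 to 3.78 for Stxbp4, highest in proliferating NAD+ and lowest in differentiation NAD+ samples in both. Selenoh was lower where Hes5 was lower, from 36.97 in proliferating Ctrl to 6.69 in differentiation Ctrl and 4.13 with NAD+. All 12 samples share their group structure with these measures, so likeness is a description.

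Other genes of the pathway were taken as 70 further genes by role, of which 63 were tested in each condition and 7 lay under the minimum. Under proliferating conditions 0 of 63 passed, with 14 at an unadjusted limma p-value under 0.05 (15.4% of all tested genes). Under differentiation conditions 4 of 63 passed, all of them lower with NAD+, against 4.65% of all tested genes. The median log2 fold change of the list was 0.08 under proliferating and -0.08 under differentiation conditions, against 0.07 and -0.08 over all tested genes, so the list as a whole lay close to the other genes. The difference between the conditions passed for 0 of the 63, with 14 at an unadjusted limma p-value under 0.05 (15.5% of all tested genes).

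The genes that fell under differentiation conditions were of several roles. Mfng and Lfng, fringe glycosyltransferases that modify the EGF repeats of receptors and so their response to ligands, fell by 1.18 (SE 0.205, limma adjusted p = 0.0254) and by 0.39 (SE 0.0867, limma adjusted p = 0.0483) on the log2 scale. Mfng went from 1.63 ± 0.187 to 0.673 ± 0.168 FPKM and Lfng from 55.0 ± 3.09 to 42.0 ± 4.55 (SD, n = 3). Under proliferating conditions neither passed, and both had no overlap. Mfng was lower with NAD+ there as well (mean 1.38 and 0.81, log2 fold change -0.71, limma adjusted p = 0.173). Lfng was higher (89.5 and 99.5, log2 fold change 0.15, limma adjusted p = 0.376). Nrarp, a target that limits Notch signalling by acting on the intracellular domain, fell from 2.89 ± 0.301 to 2.02 ± 0.0777 (log2 fold change -0.49, limma adjusted p = 0.0465). Hdac2, a histone deacetylase of corepressor complexes, fell from 16.99 ± 0.235 to 14.3 ± 0.457 (log2 fold change -0.25, limma adjusted p = 0.0366). When each sample was left out in turn, 0 to 2 of these calls were left, and of the 4 only Mfng passed after median-ratio scaling or quantile normalization, where Psen2, a gamma-secretase gene, passed upwards.

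Among the remaining roles, the 10 genes of receptor cleavage (ADAM proteases, furin and gamma-secretase subunits) had log2 fold changes above 0 in 10 of 10 cases under differentiation conditions, from 0.05 to 0.61 with a median of 0.15, where 38.2% of all tested genes were above 0. None of the 10 passed in limma, and 5 had an unadjusted p-value under 0.05, as had 24.2% of all tested genes. The highest value was that of Adam10, whose Ctrl samples were at 31.0 ± 9.84 FPKM (SD, n = 3). No other role had all its genes above 0, with 3 of 6 glycosyltransferases, 3 of 13 trafficking genes and 4 of 17 nuclear complex genes above 0. Among the members, 3 of 4 ligands were above 0, with a median of 0.175. The same held for 0 of 3 receptors and 1 of 3 targets. No role was tested as a set. Under proliferating conditions 8 of the 10 were above 0, where 59.7% of all tested genes were. Rbpj, the DNA-binding partner of the pathway, was at 4.69 ± 0.508 and 4.99 ± 0.309 FPKM in proliferating Ctrl and NAD+ samples and at 4.03 ± 0.339 and 4.01 ± 0.180 in differentiation ones (SD, n = 3), and it was chosen after its values were seen. A further list held other Hes and Hey family genes, Nrarp and TLE corepressors, grouped by family and not by shown regulation through Notch. Of the 9 that could be compared between the conditions, 5 were lower in every differentiation Ctrl sample, 1 was higher (Hes3) and 3 overlapped, against 33.9% lower and 27.9% higher of all tested genes. The 2 of them with the largest ratio downwards were Nrarp and Hes6, at 11.8 and 4.61 times lower.

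**Figure D5:**
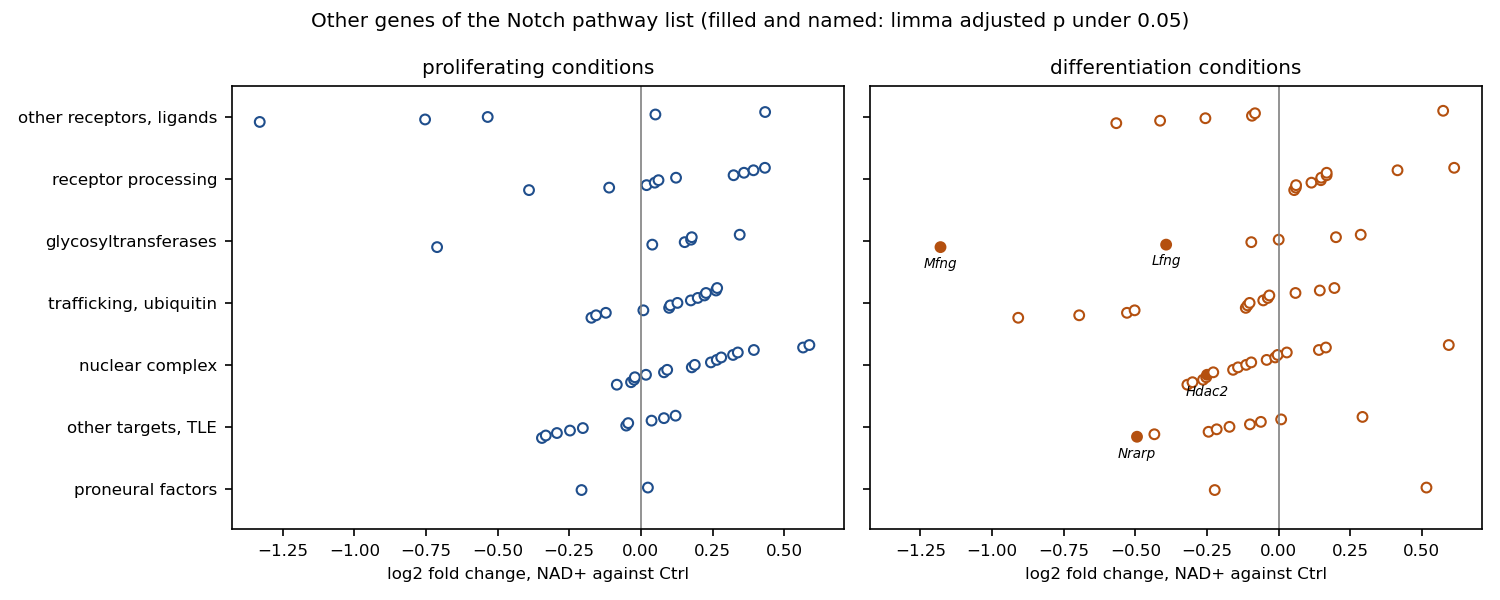
Log2 fold change of NAD+ against Ctrl (x axis) for the other tested genes of the pathway list by role (y axis), under proliferating (left) and differentiation conditions (right), with a point for each gene. Filled points passed the test and are named: Mfng, Lfng, Hdac2 and Nrarp, all under differentiation conditions and all lower with NAD+.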

How the data were processed

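Per the labels and the methods of the study, libraries were made from total RNA with a NEBNext Ultra kit, reads were mapped to mm10 with Hisat2 2.0.5, and uniquely mapped reads were counted per gene with FeatureCounts 2.0.1. The authors deposited FPKM values of 6 samples in a table for each condition, rounded to 0.01, and the program that made them is not given in the sources used here. The rounding leaves depth unknown, so no counting error is given. The tables also hold fold changes, p-values and q-values of the authors, which were not used. Titles gave the groups, and the study gave the NAD+ dose and the differentiation agents.

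The members and lists were chosen with earlier results of these data known. Genes whose mean FPKM over the fitted samples reached 0.1 were tested with limma 3.58.1 in R 4.3.3 on log2(FPKM + 0.1), which understates the change of low genes, with a trend, two-sided, and Benjamini-Hochberg adjustment over all tested genes. Each condition was fitted on its own, and the difference of the effects on all 12 samples. Named genes were the members, listed pathway genes that passed, and the 3 nearest genes of the receptor, ligand and target with the highest mean over the 12 samples. Rbpj, Hes6, Psen2 and the marker genes were named after their values were seen. Some listed genes are not reported here and are left out of the counts of their lists. Gene positions came from GENCODE M21 (GRCm38), in which 55141 of 55401 gene IDs were found, and promoters from RefSeq. The fits were tested on simulated data. Alternatives were another number added, filter, scaling, fit, replicate block and each sample left out. Summaries were computed in Python 3.11.15 (pandas 2.3.3, numpy 2.4.6, scipy 1.17.1), and figures were drawn with matplotlib 3.10.9.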

Additional observations from a re-analysis of the deposited data

Results flagged for a closer look

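The NAD+ effect on Dner differed between the conditions by 1.02 on the log2 scale (SE 0.0934, limma adjusted p = 0.00244 over 19498 tested genes). Dner was lower in 3 of 3 NAD+ samples under proliferating conditions and higher in 3 of 3 under differentiation conditions, and the difference passed the test in every alternative that was run, with values from 0.97 to 1.17. The gene was picked with its values in view, so this is a description of these samples.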

How the results depend on the processing

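The fall of Notch3 under differentiation conditions passed in all 14 alternatives (adjusted p up to 0.0337), and 3 members passed in every alternative that kept all samples. Without any 1 of the 3 differentiation Ctrl samples, Hes5 (adjusted p = 0.0652, 0.0544 and 0.0595 for replicates 1, 2 and 3) and Dner (0.0684, 0.0577 and 0.0567) no longer passed, so members that passed ranged from 1 to 3 over the samples left out. Under proliferating conditions this range was 0 to 0, and 1 member, Dner, passed with 1 added before log2, with a minimum mean FPKM of 1 and with quantile normalization. One fit of all 12 samples, in which the 4 groups share their spread, gave 4 of the 10 members there. These were Notch2 (higher) and Notch3, Dll3 and Dner (lower). It also gave 5 of the 63 other pathway genes. Of all 18597 tested genes, 787 passed in this fit, against 27 in the main fit. The difference of the effects passed for 1 member, Dner, throughout.

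Other pathway genes that passed under differentiation conditions numbered 2 with no filter and 2 with median-ratio scaling, quantile normalization or the replicate block, and 0 to 2 over the samples left out; the difference gave 0 to 1. Over all genes, the proliferating count of 27 became 9 with no filter, 75 with a minimum of 1, 60 with quantile normalization, 787 in 1 fit of all 12 samples and 0 to 36 over the samples left out. The differentiation count ranged from 328 to 719 over the samples left out, against 1357, and the count for the difference was 139 with 1 added and 12 to 195 over the samples left out. Members lower in every differentiation Ctrl sample numbered 3 with quantile normalization, for which the share of all genes was not computed. Scaling moved the median difference over all genes from -0.16 to -0.01 (median-ratio) or -0.01 (quantile).

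Effects that did not pass turned direction as follows, given for median-ratio scaling and quantile normalization. Under differentiation conditions Notch2 was at 0.0411 and 0.0314 and Hey1 at 0.0351 and 0.0213. For the difference, Jag1 was at 0.14 and 0.22 (and 0.0029 with 0.01 added) and Hey1 at 0.11 and 0.0864. Over the samples left out, Hes1 ranged from -0.11 to 0.0091, Hey1 from -0.11 to 0.0825 and Nrarp from -0.11 to 0.0198 under proliferating conditions. Under differentiation conditions Notch2 ranged from -0.0717 to 0.0072, Dll1 from -0.0054 to 0.19 and Hey1 from -0.13 to 0.0724. The difference ranged from -0.20 to 0.17 for Jag1 and from -0.13 to 0.0798 for Hey1. The cause of these moves was not tested.

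Replicate numbers pair the samples by number only. Same-numbered samples deviated from their group means with correlations across genes of 0.11, 0.02 and 0.05 under proliferating and 0.04, 0.04 and 0.03 under differentiation conditions. With the replicate block 0 genes passed under proliferating conditions in limma, 758 under differentiation conditions and 47 for the difference, and Notch3, Dner and Hes5 still passed (adjusted p = 0.0337, 0.0481 and 0.0457). Depth is unknown, so what it limits cannot be given.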
